A study of Culter alburnus with 6 samples.

Results

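The transcripts described here encode the microtubule cytoskeleton and its motors: kinesins, dyneins, dynactin, tubulins, the proteins that fold and modify tubulin, and the microtubule-associated proteins. They were chosen by name. A row of the expression table was taken when its best protein match in the NR database contained the word kinesin, dynein, dynactin, tubulin or microtubule-associated protein, and when 3 or more of the 6 libraries had a level of 1 TPM or above. TPM (transcripts per 1000000) is a level scaled for transcript length and for the total of the library. Of 61608 rows, each an assembled gene, 296 carried 1 of these words and 191 also passed the filter on TPM. The other 105 did not pass that filter, and 49 of them belonged to the axonemal dynein class. Among the 191 members, 138 reached 1 TPM in all 6 libraries, 4 passed the filter through the CK libraries alone and 2 through the F libraries alone.

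The libraries came from TCCF2022, a cell line grown from the caudal fin of Topmouth culter (Culter alburnus), a freshwater fish of the carp order, and labelled as wild-type fibroblasts. There were 3 control libraries (CK), from cells without Forskolin, and 3 libraries (F) from cells kept with 5 μM Forskolin, a plant diterpene that activates adenylate cyclase and raises cAMP. All 6 were collected on day 7 and share the same line, 10% fetal bovine serum, 5 ng/mL bFGF and a temperature of 27 °C. Since 1 line was used, the replicates are cultures or samples of that line and not different fish. The labels do not say whether they were separate cultures, so the p-values measure the spread between these samples.

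Microtubules are hollow tubes of alpha and beta tubulin dimers that grow and shrink at their ends, and gamma tubulin starts new ones. Kinesins and dyneins are motors that burn ATP to walk along them. Mitotic kinesins build the spindle, move chromosomes and help cleave the cell, and their transcripts are best known for rising in dividing cells. Transport kinesins and cytoplasmic dynein carry cargo in opposite directions, while axonemal dyneins bend motile cilia and flagella.

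The rows were assembled from the reads without a genome, so no chromosome position was available, and names come from proteins of other species, 118 of the 191 from the bream Megalobrama amblycephala. Where several rows carry 1 name they are numbered here. For 155 members a match in Swiss-Prot, KEGG or Pfam also named such a protein, and 36 rested on the NR name alone. Of the 10 fibroblast markers looked up, 6 were matched by gene symbol (the 4 collagens were not), with a summed level of 2886 to 3223 TPM in CK and 2294 to 3383 TPM in F. Most of that sum came from Fn1, Dcn and Lum. The row matched as Vim, with the NR name vimentin like, was low, at 11.6 ± 5.62 TPM in CK and 10.6 ± 2.75 TPM in F. Of 8 epithelial markers 7 were matched, with a summed level of 6376 to 6592 TPM in CK and 5050 to 5592 TPM in F, nearly all of it from the keratins Krt8 and Krt18, while the row carrying the symbol of the defining cadherin Cdh1 was listed at 0 in all 3 CK libraries and 2 F libraries. The NR name of that row is a neural cadherin, so it may not be the epithelial gene. The epithelial markers Epcam and Cldn4 and the fibroblast marker Lum were lower in F and the fibroblast marker Dcn was higher (adjusted p = 0.000542, 0.0172, 0.000745 and 0.0167 from limma). Their log2 changes were -1.40, -1.10, -2.40 and 0.84, so the summed fibroblast level hides opposite changes of Lum and Dcn. No muscle marker of 7 was matched. Of the neural and glial, pigment cell and endothelial markers, 1 of 7, 2 of 5 and 1 of 5 were matched. None of these passed, and the endothelial marker Fli1 came closest (a log2 change of 0.97, adjusted p = 0.0558 from limma). Of the 2 matched blood markers Cd74 was higher (adjusted p = 0.0466 from limma). Whether these shifts bear on the values below was not tested.

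Each row was tested for a difference between F and CK with limma on log2(TPM + 1), over the 37532 rows that passed the filter, and "higher" or "lower" below means an adjusted p under 0.05. Values after ± are SDs over the 3 libraries of a group, and library values are given in the order of replicates 1 to 3. Fold differences on this scale are smaller than the ratios of TPM for low rows. Of all rows tested, 6.15% were higher and 6.07% lower in F. At an unadjusted p under 0.05, 4872 of the 37532 rows had a positive change and 4764 a negative one. Counts of members at that unadjusted threshold, given below, stand against this background. Of the 191 members, 31 were higher, 9 were lower and 151 were neither. With the study's own added requirement of a log2 change beyond 1, 8 members were higher and 7 lower, against 3.27% and 3.90% of all rows. The median log2 change was 0.06 over the members and -0.01 over all rows. Every F library lay above every CK library in 50 members and below in 29, against 16.4% and 15.7% of all rows.

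The 31 higher rows comprised 7 mitotic kinesins, 10 alpha and beta tubulins, 3 transport kinesins, 2 axonemal dynein rows, 2 tubulin modifying enzymes and 7 rows from other classes. The plot of the change of every member by class shows the mitotic kinesins entirely to the right of 0, most alpha and beta tubulins and the few end-binding proteins to the right, and most other classes on both sides. Among the called members tubulin beta-2A and MAP6 had no CK library at 1 TPM or above. DNAH11 #2, dynein heavy chain 5 #4 and KIF19 #2 had no F library above 0. Each of these met the filter through 1 group alone and had to differ. DNAH1 came close to this, since in CK only replicate 3 reached the filter, at 1.0 TPM. With 1 library left out, the number of higher members ranged from 10 (without CK replicate 2) to 30 (without F replicate 3) and the number of lower members from 1 (without CK replicate 3 or F replicate 1) to 9 (without F replicate 2).

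**Figure D1:**
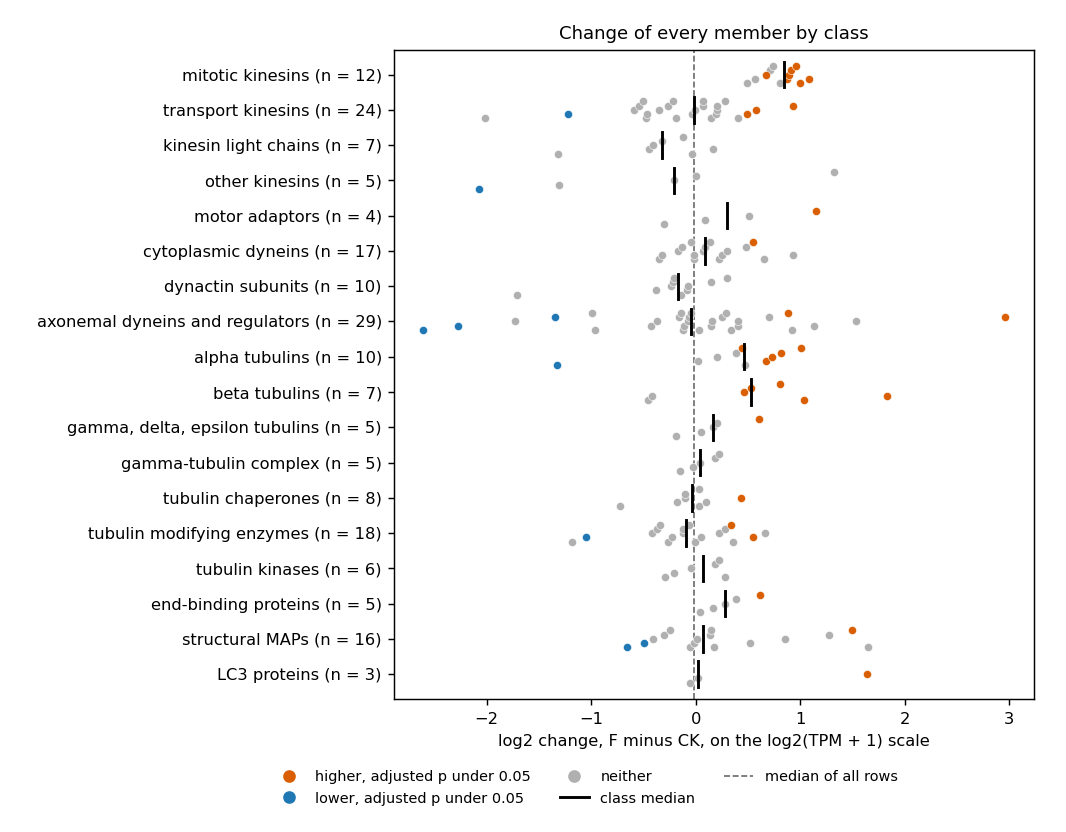
Log2 change (F minus CK, on the log2(TPM + 1) scale) of each of the 191 members, 1 point per row, grouped by class. Orange and blue points are rows higher and lower at an adjusted p under 0.05, black bars are class medians and the dashed line is the median of all 37532 rows. All 12 mitotic kinesins lie above 0, whereas the 24 transport kinesins spread around a median of -0.02.

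The clearest pattern was in the mitotic kinesins. All 12 rows had a positive log2 change, with a class median of 0.84 and a range of 0.49 to 1.08. In F 7 were higher and none was lower, against 6.15% and 6.07% of all rows. The ratio of the mean TPM in F to that in CK ran from 1.57 to 2.26, with a median of 2.0. In 11 of the 12 rows every F library lay above every CK library, against 16.4% of all rows. A positive change at an unadjusted p under 0.05 was found in 11, against 4872 of all 37532 rows. All 12 carry the Pfam kinesin motor domain, and no pair of them came from the same cluster of the assembly. Because the RNA was pooled from many cells, a larger share of dividing cells and more of these transcripts in each dividing cell cannot be told apart.

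KIF11 (row TRINITY_DN4330_c0_g1), the plus-end motor that pushes the spindle poles apart, gave the lowest adjusted p of the class. Its levels were 9.93, 9.09 and 8.29 TPM in CK and 20.4, 24.7 and 16.6 TPM in F. Each F library stood well clear of the CK libraries, and the log2 change was 1.08 (SE 0.16, adjusted p = 0.00983 from limma). KIFC1, a minus-end motor that focuses spindle poles, was at 17.2, 15.5 and 12.9 TPM in CK and 29.3, 32.2 and 24.8 TPM in F, with the groups again apart (a log2 change of 0.88, SE 0.14, adjusted p = 0.0133 from limma).

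The motors of the central spindle and cleavage furrow were next. KIF20A, needed for cytokinesis, was at 12.4, 9.19 and 10.2 TPM in CK and 20.9, 28.4 and 17.9 TPM in F (a log2 change of 0.99, SE 0.19, adjusted p = 0.0236 from limma). KIF23, the motor subunit of centralspindlin, was at 14.6, 11.7 and 12.4 TPM in CK and 24.2, 33.1 and 19.6 TPM in F (a log2 change of 0.92, SE 0.20, adjusted p = 0.0325 from limma). In each of these rows the lowest F library exceeded the highest CK library, and F replicate 2 was highest by a wide margin. KIF4, a chromokinesin that also organises the midzone, was at 8.05, 6.35 and 6.14 TPM in CK and 14, 17.4 and 10.04 TPM in F (a log2 change of 0.89, SE 0.21, adjusted p = 0.0456 from limma).

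Motors that act on chromosomes moved in the same direction. KIF22, a chromokinesin that pushes chromosome arms outward, was at 13.7, 10.7 and 13.3 TPM in CK and 24.1, 33.4 and 19.8 TPM in F (a log2 change of 0.96, SE 0.20, adjusted p = 0.031 from limma). KIF2C, which does not walk but removes tubulin from microtubule ends at the kinetochore, showed the smallest change of the 7 higher rows. Its levels were 11.3, 8.83 and 9.08 TPM in CK and 16.7, 18.3 and 13.6 TPM in F, again without overlap (a log2 change of 0.68, SE 0.15, adjusted p = 0.037 from limma).

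The other 5 rows were the lowest in level and did not pass the test. KIF14, a cytokinesis motor, was at 2.55, 1.75 and 1.86 TPM in CK and 4.12, 5.54 and 3.5 TPM in F (adjusted p = 0.0792 from limma). KIF18A, which damps chromosome movement at the metaphase plate, was at 2.44, 2.35 and 2.24 TPM in CK and 4.87, 5.81 and 3.39 TPM in F (adjusted p = 0.0891 from limma). Both had every F library above every CK library. The pair of rows named KIF20B, a cytokinesis motor, had means of 5.19 and 9.37 TPM for the first and 3.58 and 5.85 TPM for the second in CK and F, and the groups did not overlap in either. Their adjusted p from limma was 0.0993 and 0.18. KIF15-A, a spindle motor that can back up KIF11, was the only row in which the groups met, F replicate 3 and CK replicate 1 both being at 3.31 TPM (adjusted p = 0.276 from limma).

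The libraries of each group kept a steady order across the class. F replicate 2 was the highest F library and F replicate 3 the lowest in 12 of 12 rows, and CK replicate 1 was the highest CK library in 11. The summed level of the 12 rows was 93.1 ± 10.1 TPM (SD, n = 3) in CK and 182 ± 40.8 TPM (SD, n = 3) in F. The class thus varied more among the F libraries than among the CK libraries, and the part of F replicate 2 in the result was examined by leaving it out. Without it 5 of the 12 rows were higher, without F replicate 3 the count was 8, with KIF20B #1 added (adjusted p = 0.0498 from limma), and without F replicate 1 or CK replicate 2 only KIF11 remained. KIF11 was the only row of the class that passed in each of the 6 omissions, and all 12 log2 changes stayed positive in every one.

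**Figure D2:**
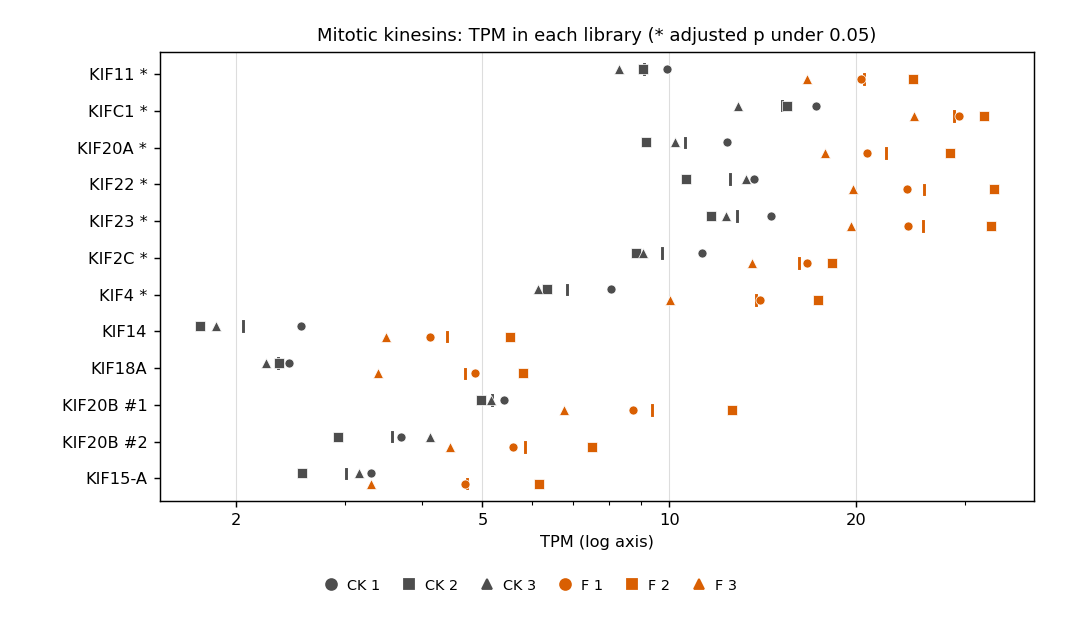
TPM (log axis) of the 12 mitotic kinesin rows in each of the 6 libraries, CK in grey and F in orange. Marker shapes give the replicate, short bars the group mean, and an asterisk a row higher at an adjusted p under 0.05. The square of F replicate 2 is the rightmost point in every row, and the groups meet only in KIF15-A.

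The partners of these motors were taken from a list of 26 genes of the spindle and of cytokinesis, chosen with earlier results of these data known. Of 23 measured, 17 were higher, against 6.15% of all rows, none was lower, and the median log2 change was 0.99. CDK1, the kinase that drives entry into mitosis, was higher in F, at 33 ± 2.13 TPM in CK and 66.7 ± 6.73 TPM in F (a log2 change of 0.99, SE 0.10, adjusted p = 0.00257 from limma). PLK1, a kinase that acts at spindle poles, kinetochores and the cleavage site, was higher in F, at 14.3 ± 1.3 TPM in CK and 32.9 ± 6.27 TPM in F (a log2 change of 1.13, SE 0.15, adjusted p = 0.00685 from limma). NUSAP1, which bundles spindle microtubules, was higher in F, at 10.6 ± 1.33 TPM in CK and 23 ± 4.05 TPM in F (a log2 change of 1.04, SE 0.15, adjusted p = 0.0101 from limma). The 6 that did not pass included CKAP5, a microtubule polymerase, which was named after its values were seen and was at 27.4 ± 0.225 TPM in CK and 31.1 ± 6.18 TPM in F (adjusted p = 0.575 from limma).

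Tubulins are far more abundant than the motors. The alpha rows summed to 4012 ± 303 TPM (SD, n = 3) in CK and 6367 ± 457 TPM (SD, n = 3) in F, and the beta rows summed to 879.5 ± 73.9 TPM (SD, n = 3) in CK and 1407 ± 129 TPM (SD, n = 3) in F. The ratio of summed alpha to summed beta TPM was 4.56 ± 0.05 (SD, n = 3) in CK and 4.53 ± 0.10 (SD, n = 3) in F, so the relative level of the pair differed by less than the spread between replicates. Of 10 alpha rows 5 were higher and 1 lower, and of 7 beta rows 5 were higher and none lower. Of all rows 6.15% were higher and 6.07% lower. The median log2 changes were 0.46 and 0.53.

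The most abundant row of all members, tubulin alpha-1A chain-like #1, was at 1966, 1889 and 1742 TPM in CK and 3049, 2983 and 2889 TPM in F. Its F libraries lay far above its CK libraries and close to one another (a log2 change of 0.67, SE 0.10, adjusted p = 0.00869 from limma). Tubulin alpha chain #1 showed the largest rise of the alpha rows, at 286, 265 and 239.8 TPM in CK and 558, 554 and 481 TPM in F (a log2 change of 1.01, SE 0.10, adjusted p = 0.0024 from limma). Tubulin alpha chain-like #1 was at 927 ± 84.5 TPM in CK and 1641 ± 232 TPM in F, tubulin alpha 5 #1 at 233 ± 15.1 TPM in CK and 392 ± 74.2 TPM in F and tubulin alpha-1C chain-like at 539.9 ± 38.3 TPM in CK and 737 ± 69.98 TPM in F. These 3 rows were higher in F without overlap (adjusted p = 0.0132, 0.0227 and 0.0382 from limma).

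A single alpha row ran the other way. Tubulin, alpha 8 like 2 (row TRINITY_DN13683_c0_g4), was at 195, 158 and 131 TPM in CK and 60.8, 73.9 and 55.8 TPM in F. Every F library lay below every CK library, and the fall was of 2.54-fold in mean TPM (a log2 change of -1.32, SE 0.17, adjusted p = 0.00643 from limma). Its share of the summed alpha TPM was 4.0% ± 0.52 (SD, n = 3) in CK and 0.994% ± 0.082 (SD, n = 3) in F. The call held with each library left out. The row shared an assembly cluster with tubulin alpha chain-like #1, which was higher in F, so the split of reads between them is uncertain.

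Among the beta rows, beta-4b was the most abundant, at 446, 421 and 389 TPM in CK and 616, 668 and 537 TPM in F (a log2 change of 0.53, SE 0.10, adjusted p = 0.0241 from limma). Beta-2b was at 336, 314 and 282 TPM in CK and 541, 592 and 502 TPM in F (a log2 change of 0.81, SE 0.10, adjusted p = 0.00508 from limma). Neither row had overlapping groups. Beta-5 was at 84.5, 70.7 and 57 TPM in CK and 144, 151 and 137 TPM in F (a log2 change of 1.04, SE 0.14, adjusted p = 0.00805 from limma), the largest change of the abundant beta rows. A further row named only tubulin beta chain was at 76.6 ± 6.0 TPM in CK and 106 ± 11.9 TPM in F (adjusted p = 0.0408 from limma). The row named tubulin beta-2A chain was near 0 in CK, at 0.06, 0.11 and 0.07 TPM, and at 2.56, 3.44 and 2.57 TPM in F, with an adjusted p of 0.00792 from limma. It passed the filter on TPM through F alone, so it had to differ, and its level stayed at a small part of that of the abundant rows.

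The abundant tubulin rows held most of the calls. The 10 alpha and beta rows with a mean of at least 50 TPM, a split made after the values were seen, all passed the test, 9 higher and 1 lower. Of the other 7 rows, with means between 0.727 and 10.7 TPM, only beta-2A passed. Tubulins are a family of near-identical genes, and 5 of the alpha rows and 4 of the beta rows came from 1 assembly cluster each. Tubulin, alpha 8 like 2 and tubulin alpha chain-like #1, which ran in opposite directions, shared another cluster. Reads may therefore have been shared between rows and the split between them is uncertain, whereas the summed levels are less exposed to it. With 1 library left out the higher alpha and beta rows numbered 4 (without CK replicate 2) to 10 (without F replicate 3). Without CK replicate 2, tubulin alpha-1A chain-like #1 missed the threshold (adjusted p = 0.0533 from limma). Tubulin alpha chain #1, beta-2b and beta-5 passed in all 6 omissions, and the other higher alpha and beta rows of at least 50 TPM missed the threshold in 1 or more.

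**Figure D3:**
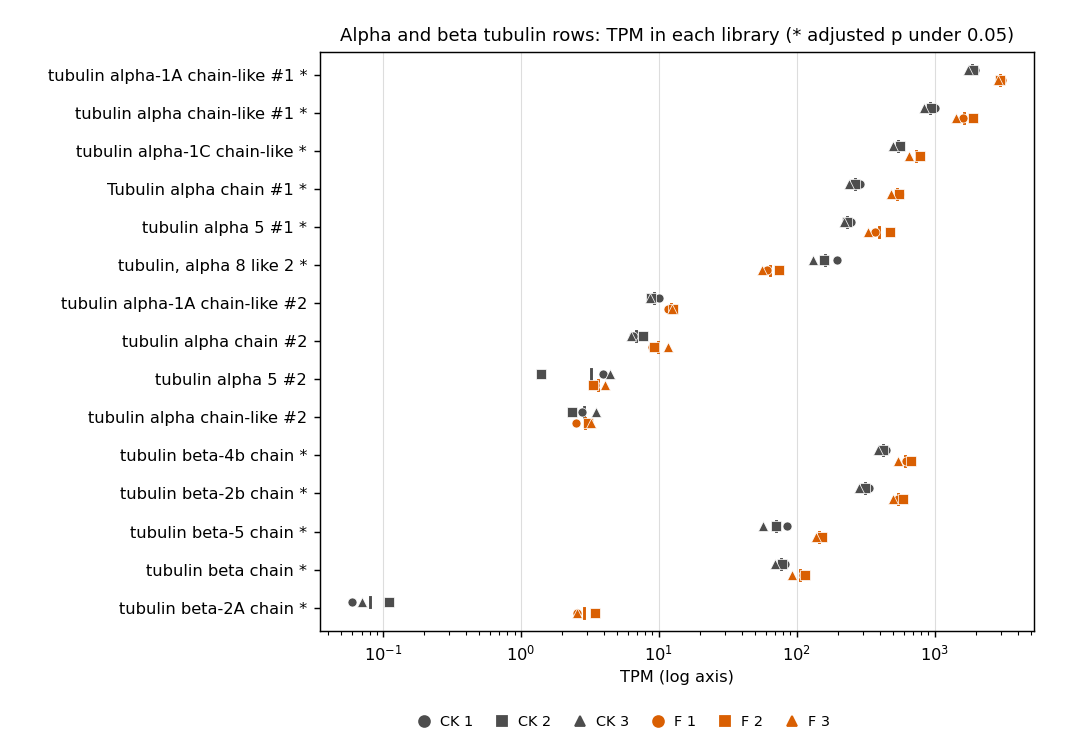
TPM (log axis) of the 15 alpha and beta tubulin rows with a value above 0 in every library, CK in grey and F in orange, ordered by mean level within each family. Shapes give the replicate, bars the group mean and an asterisk an adjusted p under 0.05. The abundant rows shift right in F, tubulin, alpha 8 like 2 shifts left, and the rows of a few TPM other than beta-2A overlap or lie close together.

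The remaining tubulins and the proteins that assemble them changed less. Epsilon tubulin, a centriole protein, was at 12.9, 12.7 and 10.8 TPM in CK and 17.2, 22.1 and 17.8 TPM in F. All F libraries were above all CK libraries (a log2 change of 0.61, SE 0.13, adjusted p = 0.0324 from limma), although the row missed the threshold whichever library was left out (adjusted p from 0.057 to 0.102 from limma). Gamma tubulin TUBG1 was at 16.2, 17.9 and 16.2 TPM in CK and 19.6, 22.1 and 17.2 TPM in F, with overlapping groups (adjusted p = 0.334 from limma). None of the 5 gamma-tubulin complex components was higher or lower, and their log2 changes lay between -0.15 and 0.23. Of 8 tubulin chaperones and cofactors only TBCA, which binds beta tubulin during folding, passed. It was also the most abundant of them, at 213, 226 and 228 TPM in CK and 282, 313 and 308 TPM in F, with no overlap (a log2 change of 0.43, SE 0.07, adjusted p = 0.013 from limma). TBCA missed the threshold without CK replicate 1 or CK replicate 2 (adjusted p = 0.0557 and 0.0632 from limma).

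Of 18 enzymes that modify tubulin, 2 were higher and 1 lower (11.1% and 5.56%), against 6.15% and 6.07% of all rows. TTLL12, a member of the tyrosine ligase-like family, was at 13.1, 12 and 12.4 TPM in CK and 18.6, 20.5 and 17.3 TPM in F (a log2 change of 0.55, SE 0.10, adjusted p = 0.018 from limma). TTLL4, which adds glutamates to tubulin tails, was at 15.7, 16.8 and 16.1 TPM in CK and 21.8, 20.5 and 20.01 TPM in F (a log2 change of 0.34, SE 0.08, adjusted p = 0.0461 from limma). In both rows every F library exceeded every CK library. TTLL12 did not pass without any 1 of the CK libraries or F replicate 1 (adjusted p up to 0.0829 from limma), and TTLL4 did not pass in any of the 6 omissions (adjusted p from 0.0662 to 0.148 from limma). TTLL5, another polyglutamylase, was at 11.1 ± 1.51 TPM in CK and 18.4 ± 4.45 TPM in F (adjusted p = 0.0732 from limma). The lower row, TTLL7 #2, was at 3.54 ± 0.824 TPM in CK and 1.17 ± 0.0321 TPM in F (adjusted p = 0.0385 from limma), rests on its NR name alone and did not pass in any omission. The 6 measured modifying enzymes that the keywords do not reach, among them the deacetylases Hdac6 and Sirt2, had none higher and none lower, against 1 lower row at an unadjusted p under 0.05.

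Proteins that bind microtubules were divided. Of the 5 end-binding proteins, which ride growing plus ends and recruit other factors, EB1a was higher. It was at 15.6, 14.8 and 16.4 TPM in CK and 25.5, 26.6 and 21.7 TPM in F, with the groups well apart (a log2 change of 0.62, SE 0.10, adjusted p = 0.015 from limma). A more abundant row with the same gene symbol, EB1-like, was at 164, 155 and 168 TPM in CK and 182, 195 and 169.9 TPM in F. Its F libraries were above its CK libraries by a small margin (a log2 change of 0.16, SE 0.07, adjusted p = 0.233 from limma). When the TPM of the rows with this symbol were summed, the log2 change was 0.21 (adjusted p = 0.14 from limma). EB1a also missed the threshold in 3 omissions (CK replicates 1 and 2 and F replicate 1, with an adjusted p up to 0.0701 from limma).

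Of 16 structural microtubule-associated proteins 1 was higher and 2 were lower (6.25% and 12.5%), against 6.15% and 6.07% of all rows. MAP1S, a ubiquitous relative of MAP1B, was at 15.6, 15.4 and 18.8 TPM in CK and 9.93, 11.8 and 8.9 TPM in F (a log2 change of -0.65, SE 0.14, adjusted p = 0.0316 from limma), with every F library below every CK library. MAP1B, a stabiliser best known from growing axons, had 2 rows that ran in opposite directions, of which only #1 passed. The rows came from different assembly clusters, and whether they belong to the same gene is not given by the table. Only #2 carried the gene symbol, so they were not summed by symbol. MAP1B #1 (row TRINITY_DN1242_c0_g1) was at 47.2, 41.7 and 45.2 TPM in CK and 33.1, 34.9 and 26.9 TPM in F, with F below CK throughout (a log2 change of -0.49, SE 0.11, adjusted p = 0.0412 from limma). MAP1B #2 (row TRINITY_DN9734_c0_g1) was at 6.2, 4.7 and 4.31 TPM in CK and 10.5, 12.7 and 7.3 TPM in F, with F above CK throughout (a log2 change of 0.86, SE 0.23, adjusted p = 0.062 from limma). Without F replicate 3, MAP1B #2 passed (adjusted p = 0.036 from limma) and MAP1B #1 did not (adjusted p = 0.0524 from limma). MAP1S and MAP1B #1 each passed in 1 of the 6 omissions, that of F replicate 2.

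MAP6 and tau, stabilisers studied mainly in mammalian neurons, were scarce. MAP6 was at 0.24, 0.03 and 0.15 TPM in CK and 3.16, 2.59 and 1.2 TPM in F. It passed the filter through the F libraries alone, so a difference was bound to appear, and its adjusted p was 0.0365 from limma. With 1 library left out MAP6 passed only without F replicate 3. Tau was at 1.02, 1.55 and 0.98 TPM in CK and 4.43, 6.84 and 2.4 TPM in F, with no overlap but a wide spread in F (a log2 change of 1.28, SE 0.35, adjusted p = 0.0695 from limma), and passed without F replicate 3 (adjusted p = 0.0361 from limma). MAP4-like, a stabiliser common outside neurons, was at 35.7, 34.2 and 34.6 TPM in CK and 41.1, 54.8 and 25.8 TPM in F (adjusted p = 0.771 from limma). Its F libraries fell on both sides of its CK libraries.

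In the list of 31 other regulators of microtubule dynamics, 28 were measured. Of these, 4 were higher and none was lower, against 6.15% and 6.07% of all rows, with a median log2 change of 0.10. Stathmin (Stmn1), which holds free tubulin dimers, was at 37.7, 28.6 and 36.1 TPM in CK and 86.4, 86.5 and 85 TPM in F. The F libraries were nearly equal and far above CK (a log2 change of 1.32, SE 0.11, adjusted p = 0.0016 from limma). Tacc3, a spindle protein that works with clathrin and Ckap5, was higher in F, at 20.4 ± 2.2 TPM in CK and 53.9 ± 15 TPM in F (a log2 change of 1.33, SE 0.20, adjusted p = 0.0104 from limma). Ckap2, another spindle protein, was higher in F, at 27.6 ± 3.17 TPM in CK and 55.7 ± 15.4 TPM in F (a log2 change of 0.96, SE 0.20, adjusted p = 0.0294 from limma). The fourth, doublecortin (Dcx), named after its values were seen, was at 0.690 ± 0.0866 TPM in CK and 4.26 ± 2.36 TPM in F (adjusted p = 0.045 from limma). Dcx passed the filter on TPM through the F libraries alone, so it had to differ. Its NR name is only doublecortin-like.

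Transport kinesins as a class stayed near the median of all rows. The class was more mixed than the mitotic one and took in KIF21 and KIF26 rows. The Pfam kinesin motor domain was found in 15 of its rows, and 18 had a second annotation. Those 18 rows had the same median log2 change as the class. Of 24 rows 3 were higher and 1 lower (12.5% and 4.17%), against 6.15% and 6.07% of all rows. The median log2 change was -0.02, and the summed level was 387 ± 12.6 TPM (SD, n = 3) in CK and 388 ± 41.6 TPM (SD, n = 3) in F. The heavy chain of conventional kinesin, KIF5B, which carries vesicles and mitochondria, had 2 rows and neither passed. Kinesin-1 heavy chain #1 was at 57.5, 61.1 and 64.3 TPM in CK and 58.2, 73.9 and 52 TPM in F. The F libraries lay on both sides of the CK libraries (a log2 change of -0.01, SE 0.14, adjusted p = 0.988 from limma). Kinesin-1 heavy chain #2 was at 31.4 ± 1.22 TPM in CK and 30.7 ± 3.41 TPM in F (adjusted p = 0.864 from limma). None of the 7 kinesin light chains, the cargo-binding subunits of the same motor, was higher or lower. At an unadjusted p under 0.05, 2 had a lower level, and both rest on the NR name alone.

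The exceptions included subunits of kinesin-2, the motor that carries material to the tip of cilia. KIF3A, a motor subunit, was at 21.2, 20.8 and 24 TPM in CK and 30.1, 38.9 and 31.4 TPM in F (a log2 change of 0.58, SE 0.12, adjusted p = 0.0294 from limma). KAP3a, the accessory subunit, was at 22.9, 20.9 and 17.5 TPM in CK and 28.3, 27.6 and 31.3 TPM in F (a log2 change of 0.49, SE 0.12, adjusted p = 0.0445 from limma). Both had every F library above every CK library. The partner subunit KIF3B, named after its values were seen, had means of 12.4 and 14.6 TPM in CK and F and did not pass (adjusted p = 0.409 from limma). A faint row named KIF3Cb, also named after its values were seen, went the other way. Its means were 1.58 and 0.817 TPM in CK and F, with every F library below every CK library (a log2 change of -0.51, adjusted p = 0.32 from limma). KIF3A missed the threshold without any 1 of the libraries but F replicate 2 (adjusted p up to 0.108 from limma), and KAP3a in all 6 omissions (adjusted p from 0.0579 to 0.122 from limma).

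KIF21A, a motor that slows microtubule growth at the cell edge, had a pair of annotated rows that moved apart. KIF21A #3 (row TRINITY_DN11737_c0_g2) was at 22.2, 26.3 and 24.6 TPM in CK and 10.7, 13.5 and 6.54 TPM in F (a log2 change of -1.22, SE 0.24, adjusted p = 0.0251 from limma). KIF21A #4 (row TRINITY_DN11737_c0_g4) was at 7.93, 7.81 and 7.25 TPM in CK and 13.6, 16.7 and 16.4 TPM in F (a log2 change of 0.93, SE 0.12, adjusted p = 0.00601 from limma). The groups did not overlap in either row, so the rows changed places: #3 was the higher of the pair in every CK library and #4 in every F library. Summed over the rows with that symbol the log2 change was -0.31 and did not pass (adjusted p = 0.18 from limma). KIF21A #4 passed in all 6 omissions, whereas #3 passed only without F replicate 2 or F replicate 3. Both rows came from the same assembly cluster, so reads may have been shared between them and the split is uncertain. Whether the rows are isoforms, gene copies or parts of 1 transcript is not given by the table.

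Adaptors that join motors to cargo gave 1 call. Of the 4 rows for trafficking kinesin-binding proteins, which link kinesin-1 to mitochondria, the row TRAK1-like was higher, at 3.75, 2.64 and 2.43 TPM in CK and 7.78, 9.24 and 6.27 TPM in F, with no overlap (a log2 change of 1.15, SE 0.21, adjusted p = 0.02 from limma). It missed the threshold in 4 omissions (CK replicates 2 and 3 and F replicates 1 and 2, with an adjusted p up to 0.0782 from limma), and summed over the TRAK1 rows the log2 change was 0.37 (adjusted p = 0.453 from limma). Of 27 further adaptors and regulators, 21 were measured and limma called none in either direction, with 1 higher and 4 lower at an unadjusted p under 0.05. The median log2 change was -0.08. Hook3, a dynein activator and the one with the lowest adjusted p, was at 97.9 ± 2.98 TPM in CK and 83 ± 4.86 TPM in F (adjusted p = 0.0773 from limma).

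**Figure D4:**
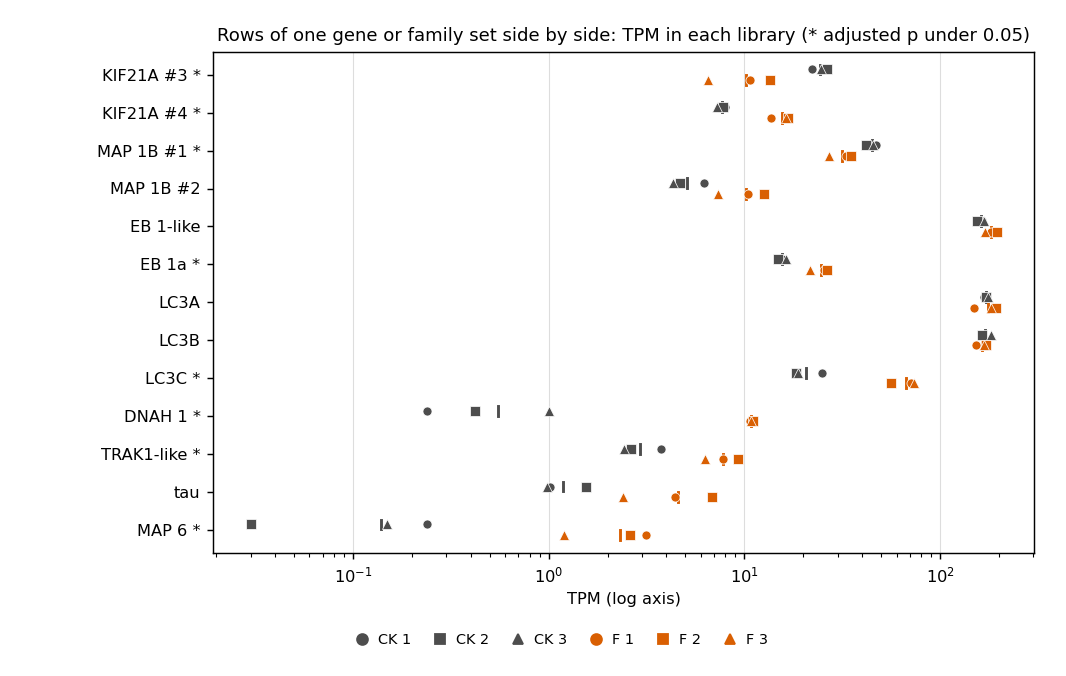
TPM (log axis) of 13 rows in each library, CK in grey and F in orange, with rows of a shared name or family placed together. Shapes give the replicate, bars the group mean and an asterisk an adjusted p under 0.05. KIF21A #3 and #4 and MAP1B #1 and #2 shift in opposite directions, LC3C shifts right while the groups overlap in LC3A and LC3B, and the DNAH1 F points coincide.

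Cytoplasmic dynein 1, the main minus-end transport motor, and dynactin, its activating complex, were counted together with chains of dynein 2, a motor of cilia. Of 27 rows 1 was higher (3.7%) and none was lower, against 6.15% and 6.07% of all rows. The median log2 change was -0.01. No row named as cytoplasmic dynein 1 or dynactin passed. The heavy chain that holds the motor, DYNC1H1, was at 128, 129 and 116 TPM in CK and 120.1, 134 and 90.7 TPM in F, with overlapping groups (adjusted p = 0.659 from limma). The most abundant subunit, the light chain DYNLRB1, was at 430.2, 465 and 442 TPM in CK and 357, 429 and 403 TPM in F. Its F libraries were all slightly below its CK libraries (a log2 change of -0.17, SE 0.09, adjusted p = 0.288 from limma). The higher row was DYNLT2B, a light chain of the dynein 2 motor that returns material from cilia, at 14.2, 12.1 and 13.3 TPM in CK and 18, 21.8 and 19.6 TPM in F (a log2 change of 0.55, SE 0.11, adjusted p = 0.0264 from limma). It did not pass in any of the 6 omissions (adjusted p from 0.0519 to 0.102 from limma). Another light chain, DYNLL2, was at 36.5 ± 1.76 TPM in CK and 51.9 ± 8.86 TPM in F (adjusted p = 0.0724 from limma) and passed without F replicate 1 (adjusted p = 0.0201 from limma).

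Dynactin had 10 rows and limma called none, with 1 higher and 1 lower at an unadjusted p under 0.05. Dynactin subunit 1a, the p150 arm that binds microtubules, was at 77.6, 75.2 and 75 TPM in CK and 62.4, 74.6 and 59 TPM in F. All F libraries were below all CK libraries, F replicate 2 only just (a log2 change of -0.22, SE 0.10, adjusted p = 0.222 from limma), and the row was lower when F replicate 2 was left out (adjusted p = 0.0338 from limma). Dynactin subunit 2, the most abundant, was at 121 ± 10.8 TPM in CK and 110.0 ± 4.23 TPM in F (adjusted p = 0.382 from limma). The summed dynactin level was 468 ± 23.1 TPM (SD, n = 3) in CK and 432 ± 14 TPM (SD, n = 3) in F.

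Axonemal dyneins and their assembly factors were low, with a median level of 2.48 TPM over 29 rows, against 7.74 TPM over all members. Of these, 2 were higher and 3 lower (6.9% and 10.3%), against 6.15% and 6.07% of all rows. The largest fitted log2(TPM + 1) change among the members belonged to DNAH1 (row TRINITY_DN16510_c1_g1), an inner-arm heavy chain of motile cilia and sperm tails. It was at 0.24, 0.42 and 1.0 TPM in CK and 10.7, 11 and 10.8 TPM in F. The F libraries were nearly identical and were enough to meet the filter. In CK only replicate 3 just reached 1 TPM, so a difference was nearly bound to appear. The ratio of means was 19.6 (a log2 change of 2.96, SE 0.23, adjusted p = 0.0013 from limma), under the ratio of 35.7 of the fainter tubulin beta-2A. DNAAF10, a factor that helps assemble dynein arms before they enter the cilium, was at 9.49, 9.42 and 8.59 TPM in CK and 16.4, 19.5 and 17.5 TPM in F, again without overlap (a log2 change of 0.89, SE 0.11, adjusted p = 0.00497 from limma), and passed in all 6 omissions.

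The 3 lower rows were faint. DNAH11 #2, an outer-arm heavy chain, was at 1.1, 1.74 and 1.85 TPM in CK and was listed at 0 in all 3 F libraries (adjusted p = 0.0274 from limma). The row named dynein heavy chain 5 #4 was at 1.88, 9.25 and 2.8 TPM in CK and also at 0 throughout F (adjusted p = 0.0354 from limma). Dynein heavy chain 5 #2 was at 5.43, 6.78 and 14.3 TPM in CK and at 0, 2.41 and 0 TPM in F (adjusted p = 0.0383 from limma). DNAH11 #2 and dynein heavy chain 5 #4 entered through their CK libraries alone, and both dynein heavy chain 5 rows rest on the NR name alone. None of the 3 passed in all 6 omissions. DNAH11 #2 passed in none, dynein heavy chain 5 #4 only without CK replicate 1 and #2 only without F replicate 2. A similar faint row, KIF19 #2, a kinesin named by NR alone, was at 5.99, 1.43 and 3.4 TPM in CK and at 0 in all 3 F libraries (adjusted p = 0.028 from limma), and passed only without CK replicate 2. It also entered through its CK libraries alone. Other rows of these names, named after their values were seen, did not pass. Dynein heavy chain 5 #1, the most abundant of its name, was at 6.13 ± 4.21 TPM in CK and 13.4 ± 8.28 TPM in F. The log2 change was also positive in #3 and was negative in #5 and #6. DNAH11 #1 was at 4.5, 0 and 0 TPM in F and KIF19 #1 at 7.33, 0 and 1.21 TPM in F, both with negative changes. The zeros throughout F thus belong to single rows.

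Genes of cilia outside the keywords were looked up as a list of 43, of which 32 were measured. There were 5 higher and 1 lower, against 6.15% and 6.07% of all rows, and the median log2 change was 0.22. Spag6, a protein of the central pair of motile cilia, was at 3.84, 4.32 and 4.39 TPM in CK and 10.1, 8.98 and 9.72 TPM in F (a log2 change of 1.03, SE 0.13, adjusted p = 0.00571 from limma). Bbs2, a subunit of the complex that moves membrane proteins in cilia, was at 8.11, 8.43 and 8.34 TPM in CK and 15.8, 16.5 and 13.2 TPM in F (a log2 change of 0.79, SE 0.12, adjusted p = 0.00971 from limma), and Ift46, a part of the anterograde trains that kinesin-2 pulls, was higher in F, at 24.6 ± 0.460 TPM in CK and 36.8 ± 3.34 TPM in F (a log2 change of 0.56, SE 0.09, adjusted p = 0.0111 from limma). The others, named after their values were seen, were Rfx2 and Ift74, which were higher, and Ift43, which was lower (adjusted p = 0.0266, 0.0452 and 0.0366 from limma). Of 8 markers of multiciliated cells 3 were matched, namely Rsph1, Spag6 and Ccdc39, all of them also in the cilia list. Their summed level was 17.9 to 30.5 TPM in CK and 23.6 to 27.3 TPM in F, and the defining factor Foxj1 was not matched by symbol.

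The LC3 proteins share the keyword because they were first found as light chains of MAP1A and MAP1B, but they are known for building autophagosome membranes. LC3C (row TRINITY_DN1567_c0_g1) was at 24.9, 18.3 and 18.9 TPM in CK and 70.8, 55.8 and 73.2 TPM in F. The F libraries lay far above every CK library, a ratio of means of 3.22 (a log2 change of 1.64, SE 0.16, adjusted p = 0.00233 from limma), and the call held under every alternative tried. LC3A was at 168, 171 and 175 TPM in CK and 149, 193 and 183 TPM in F and LC3B at 170.2 ± 9.92 TPM in CK and 164 ± 10.9 TPM in F. These abundant rows had overlapping groups (adjusted p = 0.925 and 0.736 from limma).

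The 36 members named by NR alone were counted apart. None was higher and 4 were lower (the pair of dynein heavy chain 5 rows, KIF19 #2 and TTLL7 #2). At an unadjusted p under 0.05, 2 had a positive and 9 a negative change, against 4872 and 4764 of all 37532 rows. Of the 155 members with a second annotation 31 were higher and 5 lower. The NR-only rows were fainter, with a median level of 2.52 TPM against 11.2 TPM, and 16 of the 36 had at least 1 library listed at 0, as had 16 of the other 155. The difference between these sets was not tested.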

How the data were processed

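RNA from 6 libraries (3 CK, 3 F) was measured by paired-end RNA-seq. The deposited table gives 1 TPM value per assembled gene and library. Per the study's methods the authors assembled the reads with Trinity, without a genome, and estimated TPM with RSEM 1.3.3. Genome-based tools (Cufflinks 2.2.1, TopHat2 2.1.1) and DESeq2 1.24.0 stand in the submitters' processing notes as well. The rows carry Trinity identifiers, so they come from the assembly. The deposited table itself does not name the tool that gave its TPM values. The general culture medium in the methods differs from the labels in Forskolin and bFGF. For these libraries the study, like the labels, gives 5 μM Forskolin, and the labels were followed. TPM keeps no read depth (each library sums to the same total), so no counting interval was computed and a value at 0 gives no fold. The 2 deposited columns of group means were not used.

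The rows with a TPM of 1 or more in 3 or more libraries were fitted with limma 3.58.1 (R 4.3.3, eBayes with trend) on log2(TPM + 1), F minus CK, two-sided, with Benjamini-Hochberg adjustment over all rows fitted. The pseudocount was 1 and the threshold an adjusted p of 0.05, and the code was tested on simulated data. The exact permutation test of 3 against 3 cannot go below p = 0.1 and was not used. Partner and marker genes were matched by Swiss-Prot gene symbol, taking the row with the highest mean TPM. Members, classes and lists were chosen with earlier results of these data known. Members named were, in each class, up to 5 with the lowest adjusted p and the 2 with the highest mean TPM, those past the study's thresholds and some fixed names (KIF11, KIF5B and others); partner lists gave up to 3 rows with the lowest adjusted p and the row with the highest mean. KIF4, KIF14, KIF15-A, the KIF20B rows, KIF3B, tau, tubulin alpha-1C chain-like and rows said to be so were named after their values were seen. Alternatives were another pseudocount, filter, scaling or eBayes setting, a replicate block, summing by gene symbol and leaving out each library.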

Additional observations from a re-analysis of the deposited data

How the results depend on the processing

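All rows had a median log2 change between -0.04 and 0.03 under every alternative, so no scaling shifted the whole table by 0.1. Of 31 higher and 9 lower members, the threshold of log2 change beyond 1 left 8 and 7, eBayes without trend 15 higher, no filter 2 lower, and restriction to rows with a second annotation (chosen after seeing the data) 5 lower. Of all rows, the log2 threshold left 1229 higher and 1465 lower. The 7 mitotic kinesins became 1 with the log2 threshold and 3 without trend. The 10 higher alpha and beta tubulins became 3 and 6 under the same settings, and the 3 higher transport kinesins 0 and 1. The 1 lower transport kinesin became 2 with median-of-ratios scaling or quantile normalization and 0 with TPM summed per gene symbol. Higher axonemal dyneins fell from 2 to 1 with the log2 threshold, and lower ones from 3 to 1 with a pseudocount of 0.1, a minimum of 5 TPM or a second annotation, and to 0 with no filter. Cytoplasmic dynein and dynactin gave 2 higher and 1 lower with a minimum of 5 TPM, 2 higher with summed TPM, 0 higher with the log2 threshold or without trend, and 1 lower with either scaling. The causes were not tested.

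With 1 library left out, the counts of higher and lower rows ran from 931 to 1944 and from 1006 to 1888 over all rows, 10 to 30 and 1 to 9 over the members, 1 to 8 higher mitotic kinesins, 4 to 10 higher alpha and beta tubulins, 1 to 2 higher and 0 to 3 lower transport kinesins, 0 to 1 lower axonemal dyneins, and 0 to 1 higher and 0 to 2 lower rows of cytoplasmic dynein and dynactin. Counts fall in part because fewer samples are fitted.

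The replicate numbers do not pair the samples by the labels, and deviations from the group means correlated at 0.00552, 0.00903 and 0.00608 for same-numbered libraries, far under 0.1, although each library correlated best with its own number. With the number as a replicate block, 941 of all rows were higher and 1071 lower, 10 members were higher and 1 lower, 2 mitotic kinesins and 4 alpha and beta tubulins were higher, 1 transport kinesin was higher and 0 lower, 0 axonemal dyneins were lower, and 0 rows of cytoplasmic dynein and dynactin were higher.

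Directions that turned belonged to rows near 0 that never passed the threshold, except KIF21A #4, whose sum over rows of that symbol gave -0.308. With 1 library left out the log2 change ran from -0.145 (without F replicate 2) to 0.034, 0.025 and 0.105 (without CK replicate 3, F replicate 1 and F replicate 3) for kinesin-1 heavy chain #1, from -0.111 to 0.045 for kinesin-1 heavy chain #2, from -0.246 to 0.031 for DYNC1H1, from -0.094 to 0.436 for MAP4-like, from -0.053 to 0.133 for LC3A and from -0.09 to 0.002 for LC3B, which went to 0.004 with quantile normalization. The study gives read depth only as an average over replicates, and TPM does not carry it, so the error of low rows was not sized.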
